A study of Mus musculus with 17 samples.

Results

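The proteasome subunit genes of the mouse are described here across X-ray doses in whole blood. They were chosen by name, from the probe sets to which the platform annotation gives 1 symbol, as the genes whose symbol is Psm followed by a letter from a to g and a number, without the immunoproteasome genes Psmb8, Psmb9 and Psmb10, and each gene is read by its brightest probe set over the 17 arrays. The rule found 44 genes of the 18193 with such a probe set, and 42 of them passed a filter on dim genes that kept 12696 genes in all. Psma8, a testis alpha subunit, and Psmb11, the beta subunit of the thymus, did not pass: their levels stayed between 2.65 and 3.64, and between 2.82 and 3.56, over all arrays. Psme2 is no member, because its probe set carries several symbols.

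The mice were females of the inbred strain C57BL/6JJcl, 8 weeks old, and their blood was taken 24 h after the whole body was exposed to X-rays. The groups were 5 unirradiated control mice (0 Gy) and 4 mice each at 0.5, 1.0 and 3.0 Gy, with 1 Affymetrix array per mouse. Levels are the log2 values that the authors deposited, and an error after ± is the SD over mice for a level (n = 4 at each dose, n = 5 without irradiation) and limma's standard error for a difference. A difference of 1 on this scale means that one level is 2 times the other. The question put to the data was how the genes of the core particle and of the regulatory particle differed between the doses and control.

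The proteasome is the large protease of the cytoplasm and nucleus that breaks down proteins tagged with ubiquitin. Its core particle is a barrel of alpha rings, which gate the entrance, and beta rings, which hold the cutting sites. The regulatory particle sits on the barrel's end: its lid and base bind the ubiquitin chain and remove it, and its ATPase ring unfolds the substrate and threads it in. All nucleated blood cells use it, reticulocytes still carry it while they clear their organelles, and platelets keep it as well.

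Most proteasome genes were lower at 3.0 Gy than in controls, and a smaller group was lower at 0.5 and 1.0 Gy. By limma (4 group means, Benjamini-Hochberg adjustment over all 12696 genes, adjusted p under 0.05), 11 of 42 members fell and 0 rose at 0.5 Gy, where 5.0% of all genes tested were called lower and 5.24% higher. Before adjustment, 20 members had p under 0.05 at 0.5 Gy, all of them lower. At that unadjusted threshold, 1622 of the 12696 genes were lower and 1154 higher at 0.5 Gy. These counts were 2003 and 1608 at 1.0 Gy, and 4006 and 3094 at 3.0 Gy. At 1.0 Gy 11 fell and 1 rose, against 8.49% of all genes called lower and 8.80% called higher. At 3.0 Gy 33 fell and 1 rose, against 29.2% of all genes called lower and 20.0% called higher. Psmc1 and Psmd10 are among the 33, though all their 3.0 Gy levels lay below the medians of those arrays.

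The median difference from control over the 42 members was -0.35 at 0.5 Gy, -0.28 at 1.0 Gy and -0.85 at 3.0 Gy on the log2 scale, while over all genes tested it was -0.02, -0.04 and 0.04. Among the brighter genes that a filter at the 75th percentile kept, the 3.0 Gy median was -0.10 over all genes and -0.85 over members. In 28 members every 3.0 Gy array lay below every control array, which held for 22.9% of all genes. At 0.5 Gy this was so for 8 members (4.54% of all genes) and at 1.0 Gy for 5 (6.38% of all genes). The F test over the doses called 34 of 42 members, against 48.2% of all genes. A linear slope on dose was called downward for 31 and upward for 1, against 27.5% and 19.9% of all genes.

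**Figure D1:**
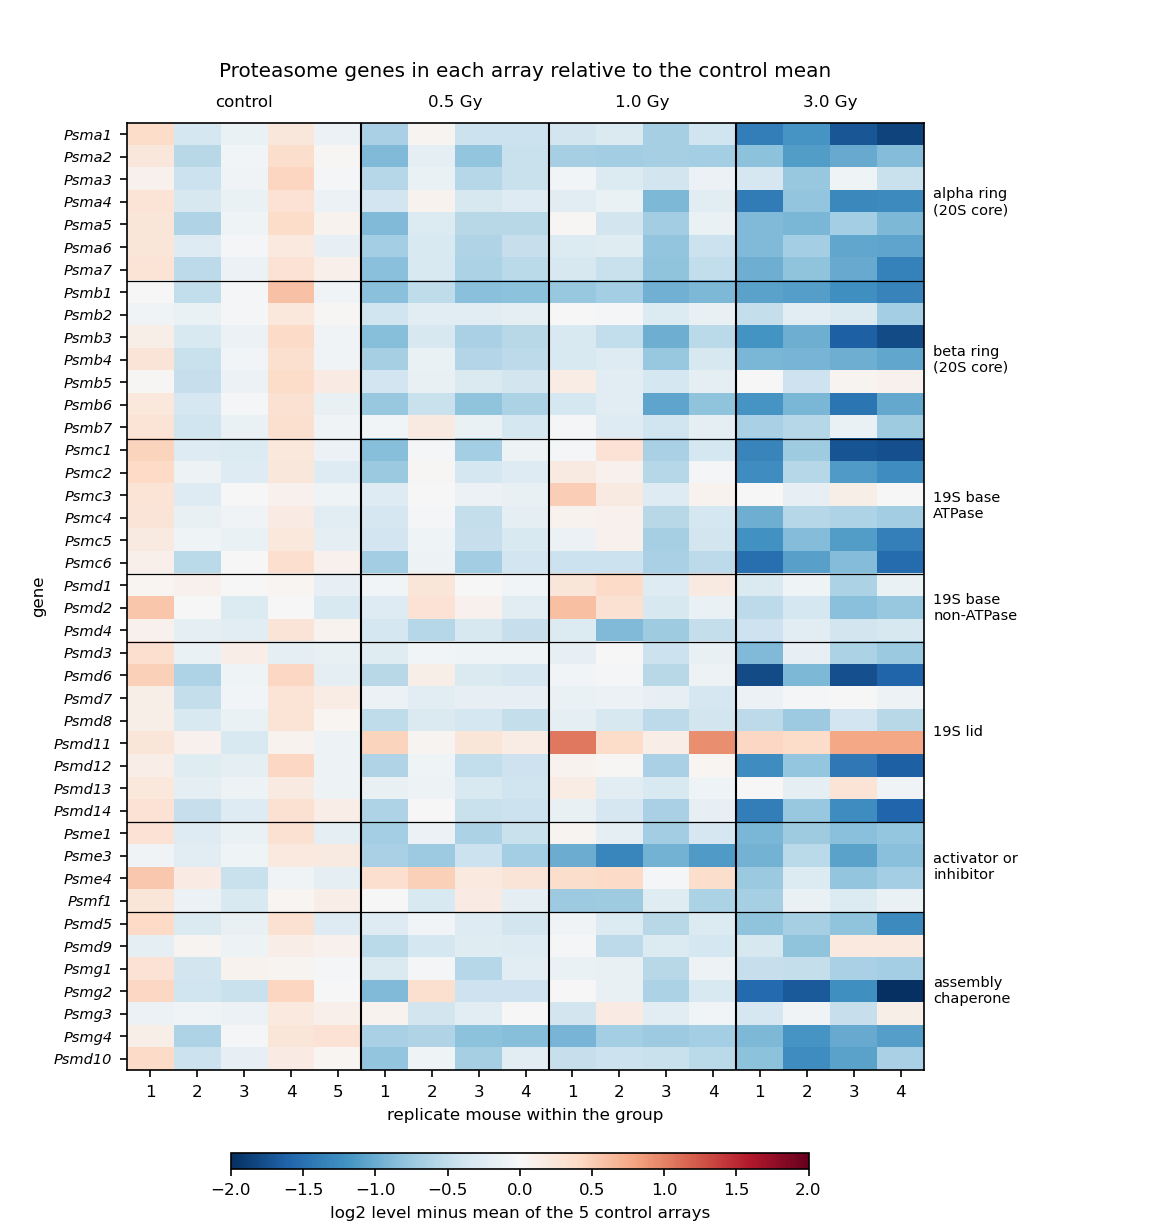
Heat map of the 42 tested proteasome genes (rows, by class) over the 17 arrays (columns, by dose), coloured by the log2 difference from the mean of the 5 control arrays. Most rows are lowest in the 4 columns of 3.0 Gy, and the row of Psmd11 is highest at 1.0 and 3.0 Gy.

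Seen array by array, the median deviation of the members from their control mean was -0.30 to 0.25 over the 5 control mice, -0.55 to -0.10 over the 4 mice at 0.5 Gy, -0.57 to -0.12 at 1.0 Gy and -0.88 to -0.71 at 3.0 Gy. The 3.0 Gy arrays lay below all others. The ranges of the 2 lower doses overlapped each other and the control range. Control replicates 1 and 4 were the high controls (0.25 each) and replicate 2 the low one (-0.30), and at 1.0 Gy replicate 3 was the lowest (-0.57).

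**Figure D2:**
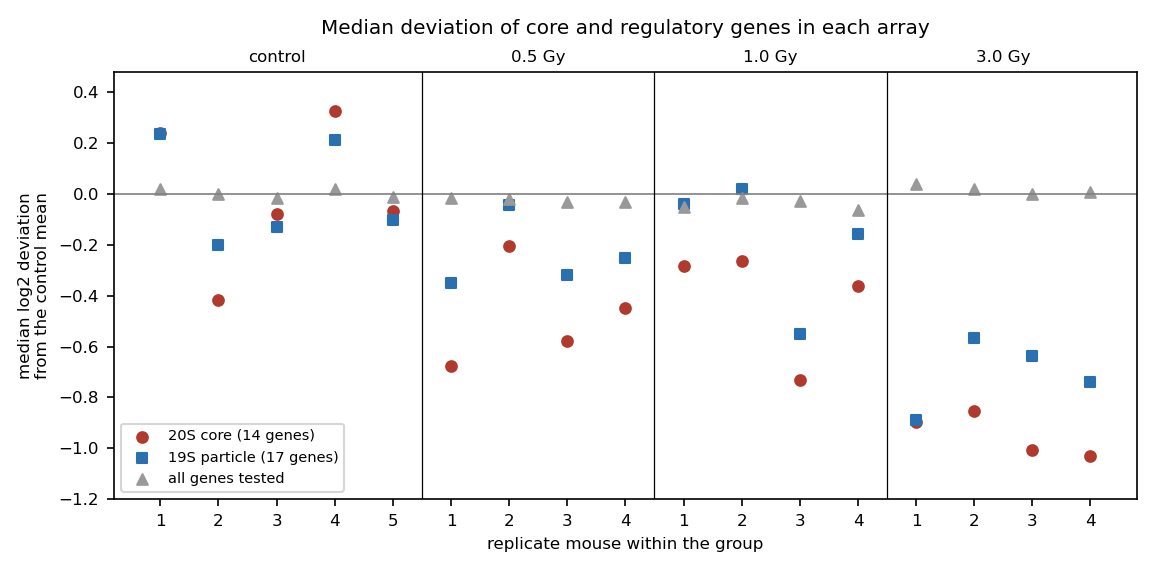
Median log2 deviation from the control mean on each array, by dose, for core particle genes (20S, circles), regulatory particle genes (19S, squares) and all genes tested (triangles). The 3.0 Gy arrays lie lowest for both proteasome classes, and the triangles stay near 0 on every array.

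Whole blood is a mixture, and in these bulk values fewer cells of a type and less RNA per cell cannot be told apart. Most lists of cell type markers moved at 3.0 Gy, and some at lower doses. The counts are read against all genes tested, of which 5.0%, 8.49% and 29.2% were called lower at the rising doses. Called higher were 5.24%, 8.80% and 20.0%. In lists this short, a count of 1 cannot be told from these shares. All 10 platelet markers rose at each dose, and their mean log2 level per array was 9.31 to 9.99 in the control mice, 10.65 to 10.85 at 0.5 Gy, 10.91 to 11.28 at 1.0 Gy and 10.91 to 11.77 at 3.0 Gy. Of 7 B cell markers 1 fell at 0.5 Gy, 1 at 1.0 Gy and 6 at 3.0 Gy, with mean levels of 7.60 to 8.33, 7.07 to 7.80, 7.23 to 7.84 and 4.92 to 6.32 from control to the highest dose. Of 8 red cell and reticulocyte markers 3, 4 and 5 fell, and 1 rose at 3.0 Gy, with mean levels of 8.14 to 9.0, 7.88 to 8.14, 7.26 to 7.88 and 7.16 to 7.49 in the same order.

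Of 8 T cell markers 2, 4 and 5 fell at 0.5, 1.0 and 3.0 Gy, with mean levels of 6.99 to 7.69 in controls and 6.79 to 7.17, 6.45 to 7.14 and 5.94 to 6.18 at the rising doses. Of 7 neutrophil markers limma called 0 at 0.5 Gy (2 with an unadjusted p under 0.05) and 1 lower at 1.0 Gy. At 3.0 Gy 6 of the 7 rose, with mean levels of 8.56 to 9.71 in 3.0 Gy mice and 7.84 to 8.58 in control mice. Of 7 monocyte markers 1, 1 and 5 fell at 0.5, 1.0 and 3.0 Gy, with mean levels of 5.74 to 6.41 in 3.0 Gy mice and 6.54 to 7.01 in control mice. Of 5 NK cell markers limma called 0 at 0.5 Gy (1 with an unadjusted p under 0.05) and 1 lower at 1.0 and at 3.0 Gy, and their mean levels were 5.60 to 6.21 in controls and 5.67 to 6.15, 5.11 to 6.58 and 5.55 to 5.70 at the rising doses. RMA values have no 0 that would mark a cell type as absent, and of the markers read here the Hba-a1 probe set did not pass the filter. The part of these shifts in the proteasome values was not tested.

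A second array-level measure followed another order than the dose. Control probe sets for 18S ribosomal RNA averaged 10.52 ± 0.49 in control mice, 12.69 ± 0.77 at 0.5 Gy, 13.28 ± 0.28 at 1.0 Gy and 10.68 ± 0.14 at 3.0 Gy (SD). The difference from control was 2.17 at 0.5 Gy and 2.76 at 1.0 Gy (two-sided exact permutation p = 0.00794 each, the smallest that 126 regroupings can give) and 0.16 at 3.0 Gy (exact p = 0.587). With the 18S level as a covariate, 6, 5 and 32 members fell at 0.5, 1.0 and 3.0 Gy. Over all genes tested, 325, 321 and 3715 were lower in that fit, against 635, 1078 and 3703 without the covariate. The members' median difference was then -0.65, -0.62 and -0.87. Its median standard error at the 2 lower doses was 0.32 and 0.39, against 0.16 without the covariate. The highest control array had an 18S level of 11.18, and the lowest arrays of 0.5 and 1.0 Gy had 11.76 and 12.89. Dose and 18S level thus cannot be told apart at these doses, and the fit with the covariate gives no corrected effect there.

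By class, counts are read against the share of all genes called lower, 5.0%, 8.49% and 29.2% at the rising doses, and whether the classes' shares differ was not tested. Of 14 core genes 7 fell at 0.5 Gy, 6 at 1.0 Gy and 13 at 3.0 Gy, with medians of -0.49, -0.42 and -0.96. Of 17 regulatory particle genes 2, 2 and 12 fell (11.8%, 11.8% and 70.6%), and 1 rose at 1.0 and at 3.0 Gy, with medians of -0.26, -0.19 and -0.62. The regulatory share at 1.0 Gy is near that of all genes. Of 4 activator and inhibitor genes 1, 2 and 3 fell, and of 7 assembly chaperone genes 1, 1 and 5 fell.

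**Figure D3:**
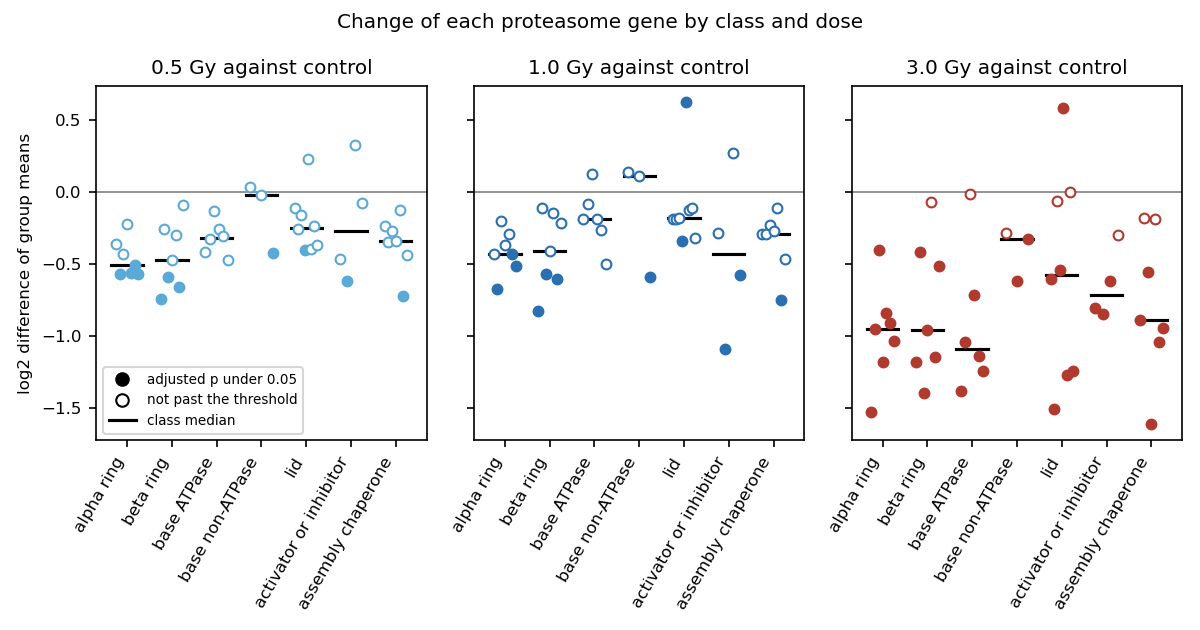
Log2 difference from control of each tested proteasome gene, by class and dose, with filled points for genes called by limma at an adjusted p under 0.05. The ATPase genes hold no called point at 0.5 and 1.0 Gy and 5 called points of 6 at 3.0 Gy, and Psmd11 is the called point above 0.

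**Figure D4:**
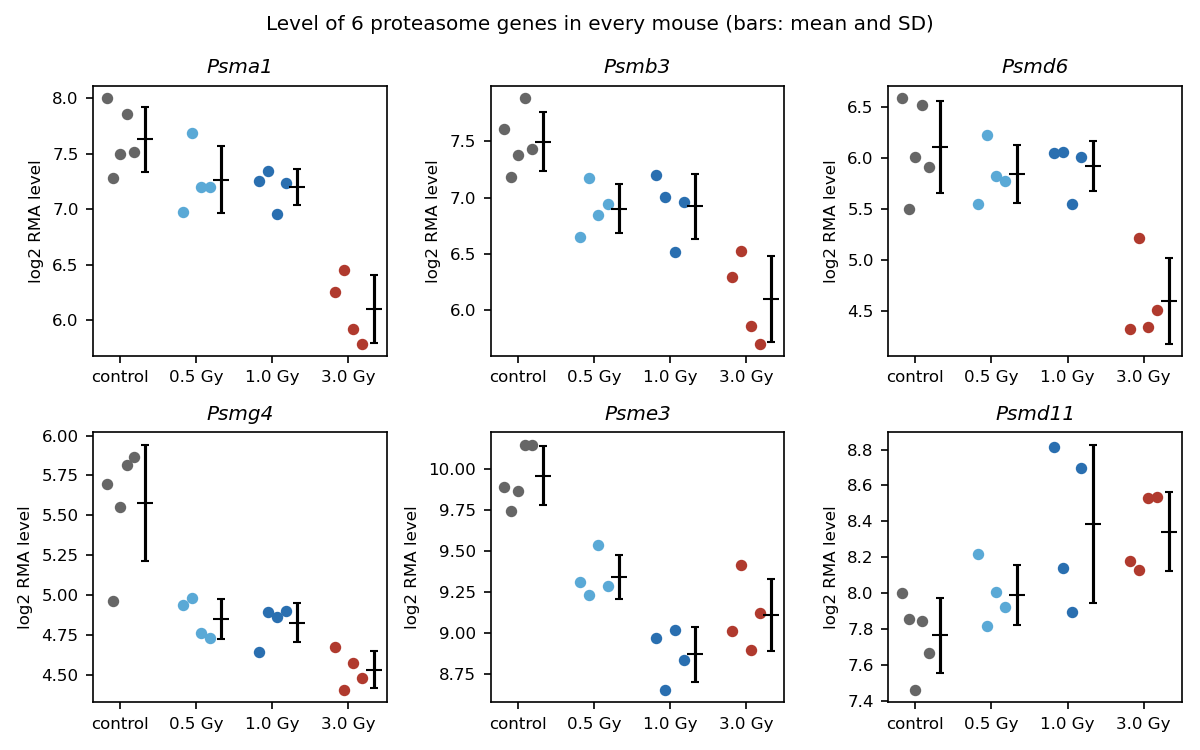
Log2 level on every array, by dose, of 6 proteasome genes (Psma1, Psmb3, Psmd6, Psmg4, Psme3 and Psmd11), with bars for the group mean and SD. Psma1 and Psmd6 are lowest at 3.0 Gy, and their ranges at 0.5 and 1.0 Gy overlap that of control. Psmg4 is lower at every dose, Psme3 is lowest at 1.0 Gy, and Psmd11 is higher at 1.0 and 3.0 Gy.

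Psma1, Psmb3, Psmc5 and Psme3 are a member each of the alpha ring, beta ring, ATPase ring and activators. Psmd6 and Psmd11 are a falling and a rising lid gene. The promoters of these 6 genes are shown because the genes moved in different ways across the doses. Each is the 250 bases before the annotated start, from RefSeq on GRCm38.p6, written along the gene's strand. Capitals mark matches to the motifs CCAAT (the NF-Y box), CCGGAAG (a core that ETS factors bind) and TGACNNNGC (the antioxidant response element core, bound by NRF1 and NRF2), on either strand. Psma1 lies at chr7:114276117-114276366 on the minus strand, Psmb3 at chr11:97703184-97703433, Psmc5 at chr11:106255935-106256184, Psmd11 at chr11:80428365-80428614 and Psme3 at chr11:101315963-101316212 on the plus strand, and Psmd6 at chr14:14120946-14121195 on the minus strand.
Psma1: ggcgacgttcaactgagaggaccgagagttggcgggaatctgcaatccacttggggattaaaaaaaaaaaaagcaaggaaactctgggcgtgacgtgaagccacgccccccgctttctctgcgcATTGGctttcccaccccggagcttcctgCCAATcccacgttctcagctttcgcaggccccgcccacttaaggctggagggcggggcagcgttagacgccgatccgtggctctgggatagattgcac
Psmb3: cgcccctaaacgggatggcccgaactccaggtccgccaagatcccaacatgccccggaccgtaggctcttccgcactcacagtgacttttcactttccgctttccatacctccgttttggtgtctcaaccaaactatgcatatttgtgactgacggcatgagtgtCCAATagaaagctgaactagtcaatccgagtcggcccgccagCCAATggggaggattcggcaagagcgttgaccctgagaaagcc
Psmc5: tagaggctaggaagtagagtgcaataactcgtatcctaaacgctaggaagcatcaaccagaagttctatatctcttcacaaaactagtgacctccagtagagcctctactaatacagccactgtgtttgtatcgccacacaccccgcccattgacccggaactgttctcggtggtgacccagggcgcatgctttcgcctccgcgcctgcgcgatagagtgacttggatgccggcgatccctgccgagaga
Psmd6: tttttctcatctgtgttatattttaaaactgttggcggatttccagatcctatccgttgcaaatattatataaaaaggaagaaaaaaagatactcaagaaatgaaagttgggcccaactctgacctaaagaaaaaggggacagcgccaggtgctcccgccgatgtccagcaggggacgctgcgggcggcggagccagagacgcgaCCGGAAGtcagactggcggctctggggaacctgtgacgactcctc
Psmd11: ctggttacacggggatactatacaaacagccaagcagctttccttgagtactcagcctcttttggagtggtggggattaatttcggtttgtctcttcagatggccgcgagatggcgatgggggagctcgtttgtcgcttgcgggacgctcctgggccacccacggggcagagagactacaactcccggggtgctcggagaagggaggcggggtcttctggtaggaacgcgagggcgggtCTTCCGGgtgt
Psme3: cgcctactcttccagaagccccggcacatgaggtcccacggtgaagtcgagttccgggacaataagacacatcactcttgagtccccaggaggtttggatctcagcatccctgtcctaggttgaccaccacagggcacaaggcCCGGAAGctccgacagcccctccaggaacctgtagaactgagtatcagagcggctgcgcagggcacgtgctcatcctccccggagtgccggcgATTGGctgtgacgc
Psma1 and Psmb3 hold 2 CCAAT matches each, Psmd6 and Psmd11 hold 1 CCGGAAG match each, Psme3 holds 1 of each of these motifs, and Psmc5 holds none of the 3. No printed matches overlap.

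Of the 44 members, 36 have a RefSeq promoter here, 38 promoters in all. CCGGAAG was in 34.2% of them, against 6.91% of all 32851 mouse promoters of the same length and 11.8% of the 13031 promoters of genes tested. CCAAT was in 34.2%, against 33.8% and 34.2%. TGACNNNGC was in 13.2%, against 10.2% and 11.8%, in Psmb5, Psmb6, Psmc6, Psmd9 and Psmd12. A match is a description of the letters, and both the falling Psmd6 and the rising Psmd11 hold CCGGAAG.

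The alpha ring forms the outer rings of the barrel, and its tails close the gate. At 0.5 Gy Psma2, Psma5, Psma6 and Psma7 fell, at 1.0 Gy Psma2, Psma6 and Psma7, and at 3.0 Gy all 7 tested alpha genes. The Psma5 call at 0.5 Gy (adjusted p by limma 0.0493) was lost in 12 of 17 fits with an array left out. Those of Psma2 and Psma6 at that dose were lost in 4 of 17 each. Psma1 had log2 levels of 8.00, 7.28, 7.50, 7.86 and 7.52 in control mice, 6.97, 7.69, 7.20 and 7.20 at 0.5 Gy, 7.26, 7.35, 6.96 and 7.24 at 1.0 Gy and 6.25, 6.45, 5.92 and 5.79 at 3.0 Gy. All 4 arrays of 3.0 Gy lay below every other array, and the ranges of the lower doses overlapped that of control. The difference at 3.0 Gy was -1.53 ± 0.17 (SE, adjusted p by limma 7.18e-07), a 2.89-fold lower level, while that at 1.0 Gy was -0.43 ± 0.17 (adjusted p by limma 0.0943).

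Psma4 had mean log2 levels of 7.13 ± 0.27 in control mice, 6.91 ± 0.20 at 0.5 Gy, 6.76 ± 0.36 at 1.0 Gy and 5.95 ± 0.27 at 3.0 Gy (SD). It too was called at 3.0 Gy and at neither lower dose (-1.19 ± 0.17, adjusted p by limma 1.43e-05), with -0.22 at 0.5 Gy and -0.37 at 1.0 Gy. Psma6 and Psma7 passed at every dose. Psma6 had -0.51 ± 0.14, -0.43 ± 0.14 and -0.91 ± 0.14 at 0.5, 1.0 and 3.0 Gy. It is read by a probe set of the _x_at type, which can bind related transcripts, and its other probe set was not called at 0.5 Gy (-0.39 ± 0.18) or 1.0 Gy (-0.27 ± 0.18) and was lower at 3.0 Gy (-1.22 ± 0.18). For Psma7 the differences were -0.57 ± 0.16, -0.51 ± 0.16 and -1.04 ± 0.16, and its calls at 0.5 and at 1.0 Gy were each lost in 6 of 17 fits with an array left out. Psma2, called at every dose as well, differed by -0.57, -0.68 and -0.95, and Psma3, with -0.41 at 3.0 Gy, was the smallest of the alpha falls.

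The beta ring holds the protease sites: Psmb6 encodes the caspase-like, Psmb7 the trypsin-like and Psmb5 the chymotrypsin-like subunit, and the other beta genes encode subunits without a cutting site. Psmb1, Psmb3 and Psmb6 fell at every dose, and Psmb2, Psmb4 and Psmb7 at 3.0 Gy and at neither lower dose. With an array left out, the Psmb3 call was lost in 8 of 17 fits at 0.5 Gy and in 4 at 1.0 Gy. The Psmb6 call was lost in 3 of 17 at each of these doses. Psmb1 had log2 levels of 7.90, 7.40, 7.88, 8.47 and 7.82 in control mice, 7.06, 7.38, 7.06 and 7.08 at 0.5 Gy, 7.14, 7.21, 6.93 and 6.99 at 1.0 Gy and 6.82, 6.80, 6.67 and 6.56 at 3.0 Gy. Every irradiated array lay below every control array. The differences were -0.75 ± 0.15 at 0.5 Gy, -0.83 ± 0.15 at 1.0 Gy and -1.18 ± 0.15 at 3.0 Gy, with adjusted p by limma of 0.00353, 6.78e-04 and 4.29e-06. Another, dimmer Psmb1 probe set was called at no dose (-0.06 ± 0.12, -0.11 ± 0.12 and -0.13 ± 0.12). With the mean over the gene's probe sets the call at 0.5 Gy was lost (adjusted p by limma 0.0519).

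Psmb3 had log2 levels of 7.61, 7.18, 7.38, 7.88 and 7.43 in control mice, 6.65, 7.17, 6.84 and 6.94 at 0.5 Gy, 7.20, 7.01, 6.51 and 6.96 at 1.0 Gy and 6.30, 6.53, 5.86 and 5.70 at 3.0 Gy. All 3.0 Gy and all 0.5 Gy arrays lay below every control array, and the highest 1.0 Gy array reached the control range. It differed from control by -0.60 ± 0.18, -0.57 ± 0.18 and -1.40 ± 0.18 at the rising doses (adjusted p by limma 0.0395, 0.0321 and 3.41e-06). A second, dimmer Psmb3 probe set did not follow it: it differed by 0.17 ± 0.14 at 3.0 Gy (adjusted p by limma over all probe sets 0.297).

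The 3 genes of the cutting sites differed in their values. Psmb6 differed by -0.66 ± 0.17, -0.61 ± 0.17 and -1.14 ± 0.17 and was called at each dose. Psmb7 was called at 3.0 Gy and at neither lower dose (-0.52 ± 0.16, adjusted p by limma 0.0102). Psmb5 was called at no dose, and at 3.0 Gy its levels were 7.31, 6.90, 7.37 and 7.40 in 3.0 Gy mice, against 7.35, 6.86, 7.21, 7.69 and 7.48 in control mice, which overlap (difference -0.07 ± 0.15, adjusted p by limma 0.702). Psmb4 had mean levels of 7.54 ± 0.05 in 3.0 Gy mice and 8.50 ± 0.31 in control mice (SD), a difference of -0.96 ± 0.15 (adjusted p by limma 3.45e-05).

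The ATPases of the base form the ring that unfolds substrates. Limma called 0 of the 6 at 0.5 and at 1.0 Gy (2 and 1 with an unadjusted p under 0.05), where their medians were -0.32 and -0.19, and 5 fell at 3.0 Gy, where the median was -1.09. Psmc5 had log2 levels of 7.21, 6.93, 6.89, 7.23 and 6.85 in control mice, 6.64, 6.93, 6.55 and 6.71 at 0.5 Gy, 6.91, 7.11, 6.36 and 6.65 at 1.0 Gy and 5.82, 6.16, 5.90 and 5.65 at 3.0 Gy. The 3.0 Gy arrays lay below all others, with a difference of -1.14 ± 0.15 (adjusted p by limma 3.59e-06). Psmc1 differed by -1.38 ± 0.24 at 3.0 Gy, Psmc6 by -1.25 ± 0.17 and Psmc2 by -1.05 ± 0.19. At 1.0 Gy Psmc6 stood at -0.50 ± 0.17 (adjusted p by limma 0.0527).

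Psmc3 was the ATPase gene that was not called. Its mean log2 levels were 6.92 ± 0.20 in control mice, 6.79 ± 0.10 at 0.5 Gy, 7.04 ± 0.31 at 1.0 Gy and 6.90 ± 0.12 at 3.0 Gy (SD), and its difference at 3.0 Gy was -0.02 ± 0.13 (adjusted p by limma 0.915).

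The non-ATPase genes of the base encode the scaffolds Psmd1 and Psmd2 and the ubiquitin receptor Psmd4. Psmd4 fell at each dose, with differences of -0.43 ± 0.13, -0.59 ± 0.13 and -0.33 ± 0.13 at 0.5, 1.0 and 3.0 Gy. With an array left out, its call was lost in 7 of 17 fits at 0.5 Gy and in 6 of 17 at 3.0 Gy. A second Psmd4 probe set gave -0.41 ± 0.12, -0.67 ± 0.12 and -0.29 ± 0.12, and was not called at 3.0 Gy (adjusted p by limma over all probe sets 0.0559). The dimmest of the 3 gave 0.30 ± 0.11 at 3.0 Gy, in the other direction (adjusted p by limma over all probe sets 0.0356). Psmd2 was called at 3.0 Gy and at neither lower dose (-0.62 ± 0.20), where its mean levels were 5.47 ± 0.22 in 3.0 Gy mice and 6.09 ± 0.35 in control mice (SD). Psmd1 differed by -0.28 ± 0.13 at 3.0 Gy and was called at no dose against control.

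The lid holds Psmd14, the enzyme that cuts the ubiquitin chain from the substrate, and its partner Psmd7, with Psmd3, Psmd6, Psmd8, Psmd11, Psmd12 and Psmd13 as structural subunits. Of these 8 genes Psmd8 fell at 0.5 and at 1.0 Gy, and Psmd3, Psmd6, Psmd8, Psmd12 and Psmd14 fell at 3.0 Gy. Psmd6 had log2 levels of 6.59, 5.50, 6.01, 6.53 and 5.91 in control mice, 5.55, 6.23, 5.82 and 5.78 at 0.5 Gy, 6.05, 6.06, 5.55 and 6.01 at 1.0 Gy and 4.32, 5.21, 4.34 and 4.51 at 3.0 Gy. The arrays at 0.5 and 1.0 Gy overlapped control, and those at 3.0 Gy lay below all others, with a difference of -1.51 ± 0.22 from control (adjusted p by limma 1.36e-05).

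Psmd14 had mean levels of 6.16 ± 0.35 in 3.0 Gy mice and 7.41 ± 0.34 in control mice, and Psmd12 of 4.57 ± 0.37 in 3.0 Gy mice and 5.84 ± 0.27 in control mice (SD). The differences were -1.24 ± 0.19 for Psmd14 and -1.27 ± 0.19 for Psmd12. Psmd8 differed by -0.41 ± 0.12, -0.35 ± 0.12 and -0.55 ± 0.12 at the rising doses. Its calls at the lower doses lay close to the threshold: that at 0.5 Gy (adjusted p by limma 0.0314) was lost in 6 of 17 fits with an array left out, and that at 1.0 Gy (0.0491) in 13 of 17. Psmd7 (-0.07 ± 0.12) and Psmd13 (-0.0015 ± 0.12) were not called at 3.0 Gy. The second Psmd7 probe set was called lower there (-0.77 ± 0.20, adjusted p by limma over all probe sets 0.00428), as was the mean over the gene's probe sets.

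Psmd11, which links the lid to the core particle, rose at 1.0 and 3.0 Gy, where the other called genes of its class fell. Its log2 levels were 8.00, 7.86, 7.46, 7.84 and 7.67 in control mice, 8.22, 7.82, 8.00 and 7.92 at 0.5 Gy, 8.81, 8.14, 7.89 and 8.70 at 1.0 Gy and 8.18, 8.13, 8.53 and 8.53 at 3.0 Gy. All 3.0 Gy arrays lay above every control array, while the 0.5 and 1.0 Gy ranges overlapped that of control. It differed by 0.22 ± 0.17 at 0.5 Gy (adjusted p by limma 0.505), 0.62 ± 0.17 at 1.0 Gy (0.0154) and 0.58 ± 0.17 at 3.0 Gy (0.00921).

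The Psmd11 values come from a probe set of the _s_at type, which can bind related transcripts. With the gene read by its brightest probe set of another type, it was not called at any dose, with 0.11 ± 0.10, 0.23 ± 0.10 and 0.19 ± 0.10. The 2 dimmer ones that follow in level gave 0.64 ± 0.15, 1.01 ± 0.15 and 0.92 ± 0.15, and 0.63 ± 0.17, 0.85 ± 0.17 and 0.96 ± 0.17. Both were higher at every dose (adjusted p by limma over all probe sets at most 0.0198). The 2 dimmest that passed the filter were called at no dose, with -0.01 ± 0.12, -0.06 ± 0.12 and 0.25 ± 0.12, and -0.13 ± 0.08, -0.02 ± 0.08 and 0.14 ± 0.08.

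**Figure D5:**
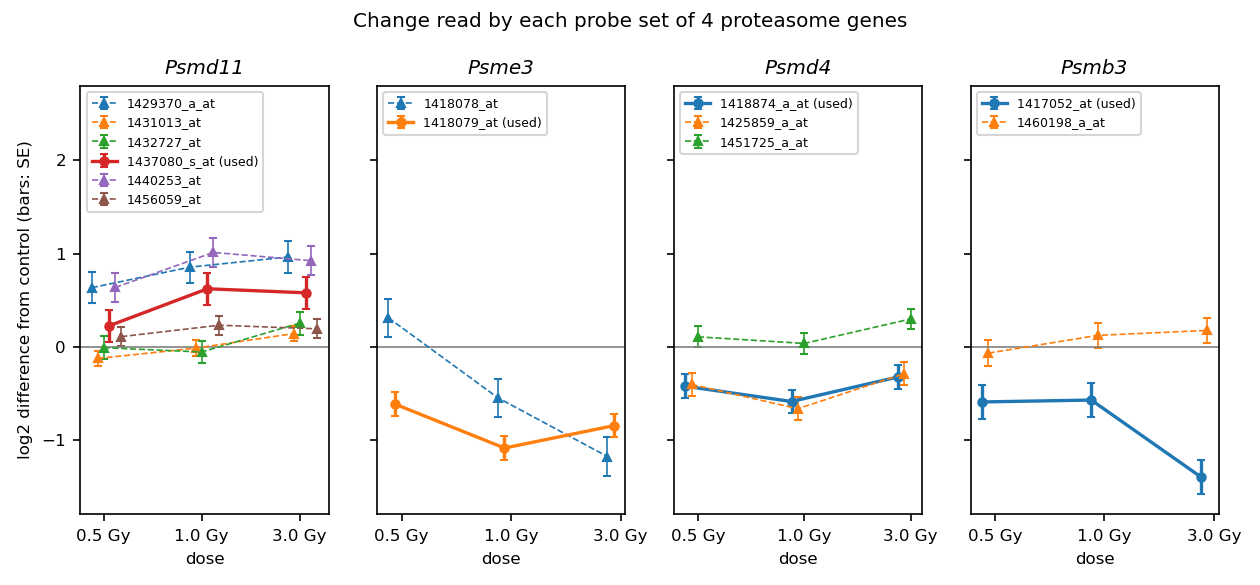
Log2 difference from control of every probe set that passed the filter for 4 proteasome genes whose probe sets disagree, by dose, with standard errors as bars and circles for the probe set used in the other results. The probe sets of Psmd11 lie at or above 0 at 3.0 Gy, while those of Psme3, Psmd4 and Psmb3 fall on both sides of 0 at 1 or more doses.

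Over all members, 96 probe sets carried a member's symbol and 67 passed the filter, 25 of which were further probe sets of 18 genes already read by a brighter one. The further probe sets had the sign of the brighter one in 20, 20 and 21 cases at 0.5, 1.0 and 3.0 Gy. Of these 25, limma called 1, 2 and 10 lower, where 4.43%, 7.89% and 28.7% of the 20445 probe sets tested were lower. It called 2, 3 and 3 higher, against 5.61%, 9.59% and 19.7%. The lower counts at 0.5 and 1.0 Gy are near those shares.

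The activators open the core particle's gate in place of the regulatory particle. Psme3, the nuclear activator, fell at every dose, with log2 levels of 9.90, 9.75, 9.87, 10.15 and 10.15 in control mice, 9.31, 9.23, 9.54 and 9.29 at 0.5 Gy, 8.97, 8.65, 9.02 and 8.84 at 1.0 Gy and 9.01, 9.42, 8.90 and 9.12 at 3.0 Gy. Every irradiated array lay below every control array, and the 1.0 Gy group held the lowest mean. The differences were -0.62 ± 0.12, -1.09 ± 0.12 and -0.85 ± 0.12 (adjusted p by limma 0.00288, 3.37e-06 and 1.53e-05). A second Psme3 probe set gave 0.31 ± 0.21, -0.55 ± 0.21 and -1.18 ± 0.21, of which the value at 3.0 Gy was called.

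Psme4, a large nuclear activator, had mean levels of 5.98 ± 0.37 in control mice, 6.30 ± 0.12 at 0.5 Gy, 6.25 ± 0.19 at 1.0 Gy and 5.36 ± 0.23 at 3.0 Gy (SD). It was called lower at 3.0 Gy (-0.62 ± 0.16, adjusted p by limma 0.00394), while its differences of 0.32 ± 0.16 at 0.5 Gy and 0.27 ± 0.16 at 1.0 Gy were not called. Another Psme4 probe set was called higher at 1.0 Gy (0.34 ± 0.10, adjusted p by limma over all probe sets 0.0202) and was not called at 3.0 Gy (-0.17 ± 0.10). A further one, of the _s_at type, was lower at 3.0 Gy (-0.80 ± 0.20, adjusted p by limma over all probe sets 0.00237). It was called at neither lower dose. Psme1, a subunit of the interferon-inducible activator, fell at 3.0 Gy (-0.81 ± 0.16). Psmf1, first described as a proteasome inhibitor, fell at 1.0 Gy (-0.58 ± 0.15, adjusted p by limma 0.00843) and stood at -0.30 ± 0.15 at 3.0 Gy (adjusted p by limma 0.0962).

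Assembly chaperones build the particles and leave when they are complete. Psmg2, which helps to build the alpha ring, had the lowest 3.0 Gy difference of the 42 genes, with levels of 5.74, 4.93, 4.89, 5.75 and 5.33 in control mice, 4.44, 5.65, 4.92 and 4.92 at 0.5 Gy, 5.34, 5.18, 4.69 and 5.02 at 1.0 Gy and 3.77, 3.64, 4.10 and 3.33 at 3.0 Gy. The 3.0 Gy arrays lay below all others, with a difference of -1.61 ± 0.23 from control (adjusted p by limma 1.1e-05). Psmg4, another alpha ring chaperone, fell at every dose, with differences of -0.73 ± 0.15, -0.75 ± 0.15 and -1.05 ± 0.15.

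Psmd5 and Psmd10, chaperones of the base, fell at 3.0 Gy, with differences of -0.89 ± 0.16 and -0.95 ± 0.17. The 3.0 Gy levels of Psmd10, 2.76 to 3.35, lay below those arrays' medians, and it passed the filter through arrays of the other groups. Psmg1, the partner of Psmg2, fell at that dose as well (-0.56 ± 0.14). Psmg3 (-0.19 ± 0.14) and Psmd9 (-0.18 ± 0.17) were not called at 3.0 Gy.

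Between the doses, most members were lower at 3.0 than at 1.0 Gy, and none was called between the lower doses. Limma called 0 of 42 members between 1.0 and 0.5 Gy, where 0.0158% of all genes were called lower and 0% higher, and 3 members had an unadjusted p under 0.05. Such a p was found for 735 of the 12696 genes, a share near that of the members. At 3.0 Gy against 1.0 Gy 25 members were lower and 0 higher (22.7% and 15.9% of all genes), and against 0.5 Gy 22 were lower and 0 higher (20.9% and 12.9%). At an unadjusted p under 0.05 these numbers were 27 and 25, all lower. Over all genes, 3349 and 3140 were lower at that threshold, and 2944 and 2496 higher.

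Psmg2 (-1.34 ± 0.24), Psmd6 (-1.32 ± 0.23), Psmc1 (-1.19 ± 0.25) and Psma1 (-1.10 ± 0.18) were lower at 3.0 than at 1.0 Gy, as were 5 of the 6 ATPase genes. Psmb1 (-0.35 ± 0.16), Psma2 (-0.27 ± 0.17), Psmg4 (-0.29 ± 0.15), Psme3 (0.24 ± 0.13) and Psmd4 (0.26 ± 0.13) were not called in that contrast. Psmd1, not called against control, was lower at 3.0 than at 1.0 Gy (-0.42 ± 0.14, adjusted p by limma 0.026), and Psme4 was lower at 3.0 Gy than at either lower dose (-0.89 ± 0.17 against 1.0 Gy and -0.94 ± 0.17 against 0.5 Gy).

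The immunoproteasome genes replace the cutting subunits of the beta ring in immune cells. Of the 3, Psmb9 fell at 0.5 Gy and all fell at 3.0 Gy, and limma called 0 at 1.0 Gy (2 with an unadjusted p under 0.05). Of all genes, 5.0%, 8.49% and 29.2% were called lower at the rising doses. At 3.0 Gy Psmb8 differed by -1.30 ± 0.19, Psmb10 by -1.29 ± 0.22 and Psmb9 by -0.82 ± 0.14. Psmb10 takes the place of Psmb7, Psmb8 that of Psmb5 and Psmb9 that of Psmb6.

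Of the 11 proteasome-associated genes listed, 9 were tested, and 1, 1 and 4 fell at 0.5, 1.0 and 3.0 Gy. These are 11.1%, 11.1% and 44.4%, against 5.0%, 8.49% and 29.2% of all genes called lower. The share at 1.0 Gy is near that of all genes. Txnl1, a thioredoxin that binds the lid, fell at 3.0 Gy (-1.43 ± 0.16), with Pomp, the maturation factor of the core, Akirin2, which carries proteasomes into the nucleus, and the deubiquitinase Uchl5. Sem1, a small lid protein, fell at 0.5 Gy (-0.67 ± 0.17) and 1.0 Gy (-0.62 ± 0.17), and its value at 3.0 Gy was -0.38 ± 0.17. Usp14, the deubiquitinase of the base, was called at no dose (0.01 ± 0.11 at 3.0 Gy).

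Of 9 genes for ubiquitin shuttles and the unfoldase, 7 were tested. Ubqln1 (-1.49 ± 0.20), Rad23b (-0.94 ± 0.16) and Ubqln4 (-0.81 ± 0.17), which carry tagged proteins to the proteasome, fell at 3.0 Gy. These 3 are 42.9% of the 7, against 29.2% of all genes called lower there. Ubqln2 rose at 0.5 Gy (0.78 ± 0.23) and 1.0 Gy (1.01 ± 0.23). Of 6 ubiquitin and E1 enzyme genes, Uba6 was the one tested, with -0.28 ± 0.14 at 3.0 Gy, not called.

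Nfe2l1 encodes NRF1, the factor that drives proteasome gene transcription when the proteasome is inhibited, and Ngly1 the enzyme that helps to activate it. Nfe2l1 was called at no dose (-0.01 ± 0.11, 0.16 ± 0.11 and -0.07 ± 0.11). Ngly1 fell at 3.0 Gy (-0.51 ± 0.17). Nfe2l2, which encodes NRF2, rose at 1.0 Gy (0.61 ± 0.14) and 3.0 Gy (0.44 ± 0.14).

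The falls at 3.0 Gy kept their number under the settings tried: 30 to 33 members were lower with other normalizations, filters, probe set rules and covariates, and 31 to 34 with 1 array left out. The counts at the lower doses moved more, between 3 and 16 at 0.5 Gy and between 6 and 16 at 1.0 Gy with 1 array left out. Lower calls over all genes moved too in these fits, between 274 and 928 at 0.5 Gy and between 770 and 1264 at 1.0 Gy. Over the 17 fits with an array left out and 10 other settings, 27 of the 33 falls at 3.0 Gy passed each time they were tested. Of these 27, Psmc1 was not tested under the mean over probe sets and the 75th percentile filter, nor Psmd10 under that filter, which leaves 25 that were tested and passed in every setting. Psma2, Psme3 and Psmg4 did so among the 11 falls at 1.0 Gy, and Psmg4 among the 11 at 0.5 Gy.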

How the data were processed

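Whole blood RNA of 17 mice was measured on Affymetrix arrays, and 200 ng of RNA per mouse was used, per the labels' protocols. The values of the 45101 probe sets are on a log2 scale as the authors deposited them. Per the submitters' processing notes these came from RMA (robust multi-array average, which makes the arrays' intensity distributions alike) with R 3.3.2. What software ran RMA, with which settings and probe set definition, is not given in the sources used here. This method removes part of any change that most genes share, and it pulls dim probe sets towards background. The deposited distributions were not fully alike. Their 75th percentile over all probe sets was 4.77 to 4.83 on the 3.0 Gy arrays. It was 4.87 to 4.95 in control mice, 4.87 to 4.95 at 0.5 Gy and 4.86 to 4.94 at 1.0 Gy.

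Of the probe sets, 34945 carry 1 gene symbol, 932 several, 9160 none and 64 are control probe sets. Each of 18193 genes was read by its brightest probe set, and a gene was kept where this lay above its array's 50th percentile in at least 4 arrays. The 12696 genes kept were tested with limma 3.58.1 in R 4.3.3 (two-sided, 4 group means over 17 arrays, Benjamini-Hochberg over all genes, adjusted p under 0.05), and the script was tested on simulated data. Group means were also compared by the exact permutation test for the 18S probe sets.

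The members, gene lists, marker lists and motifs were chosen with earlier results of these data known. Within a class, values are given for up to 4 tested members with the smallest F test p, for members called against their class and for members that show a contrast between classes or doses, the last chosen after their values were seen. Of each further pathway list up to 3 genes with the smallest F test p are named, and others singled out were chosen after their values were seen.

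The labels call the samples biological replicates, and the number of mice limits the precision. Pairs of arrays within a group correlated between 0.972 and 0.992 over all probe sets, and no 2 arrays held identical values. Alternatives covered the probe set rule, the filter, the normalization, the fit and each array left out. Genes of the lists without a probe set of 1 symbol were not analysed here.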

Additional observations from a re-analysis of the deposited data

Results flagged for a closer look

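Within groups of 4 or 5 arrays, each tested member was examined for an array that stood far from the rest by Dixon's test. The members' median deviation per array was examined in the same way. Of 172 groups, 168 of single members and 4 of the median, 11 were marked, and chance marks about 1 in 20. In 6 of the 11 the array was 1.0 Gy replicate 3, which was the lowest of its group, with a log2 level of 6.23 for Psma4, 7.74 for Psmb4, 5.55 for Psmd6, 5.20 for Psmd12, 5.96 for Psme4 and 4.93 for Psmg1. Without that array 6 members were called lower at 1.0 Gy, against 11 with it. Over all genes, 992 were called lower without it and 1078 with it. The others were Psmg4 in 1.0 Gy replicate 1 (4.64, the lowest), Psmb2 and Psmd3 in 0.5 Gy replicate 1 (6.31 and 5.14, the lowest), Psmb1 in 0.5 Gy replicate 2 (7.38, the highest) and Psma5 in 3.0 Gy replicate 3 (7.26, the highest).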

How the results depend on the processing

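At 3.0 Gy 30 to 33 members were called lower under the settings other than leaving out an array and 31 to 34 with 1 array left out, against 33, and 0 members were called higher at 0.5 Gy under any setting run with limma. At 0.5 Gy the 11 lower calls became 7 with the mean over a gene's probe sets, 6 with the 18S level as a covariate and 3 to 16 with 1 array left out. The arrays behind the low counts were control replicates 4 (3 calls), 1 (4) and 5 (6) and 0.5 Gy replicates 1 and 3 (3 each) and 4 (6). Lower calls over all genes tested dropped as well, from 635 to 335, 400 and 527 without these control arrays. Without 0.5 Gy replicates 1, 3 and 4 they were 274, 285 and 374. At 1.0 Gy the 11 lower calls became 17 after repeated quantile normalization, 5 with the 18S covariate and 6 to 16 with 1 array left out (7 without control replicate 1 and 6 without control replicate 4, 1.0 Gy replicate 3 or 1.0 Gy replicate 4). Over all genes the 1078 lower calls became 913 and 799 without control replicates 1 and 4. Without 1.0 Gy replicates 3 and 4 they became 992 and 770. The single higher call, Psmd11, became 0 at 1.0 Gy and 0 at 3.0 Gy without _x_at and _s_at probe sets, 0 at 1.0 Gy with the 18S covariate, and 0 to 1 at 1.0 Gy with 1 array left out (0 without 1.0 Gy replicate 1 or 4). The cause of these changes was not tested.

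Of the 33 falls at 3.0 Gy, Psma3 and Psmd4 each lost their call in 6 of 17 fits with an array left out. Psma3 also lost it after quantile normalization or centring, in the fit of the compared groups and with the replicate block, and Psmd4 with the mean over probe sets, centring, the block, the 18S covariate and a variance trend. Psmb2 and Psmb7 lost it after quantile normalization, and Psmd2 and Psme4 with the mean over probe sets. Scaling moved the split of all calls at 3.0 Gy: 40.6% of called genes were higher in the main values, 52.7% after quantile normalization and 59.2% with arrays centred on the tested genes, and the median of all genes was 0.04, 0.12 and 0.18. The members' median was -0.85, -0.76 and -0.71 there.

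Of 24 pairs of same-numbered arrays from different groups, 11 correlated above 0.1 in their deviations, as did 29 of 84 pairs with other numbers. The median correlations were 0.07 and -0.03. The pairs share arrays, so these values cannot decide whether the replicate numbers pair. With the replicate number as a block, 5 members were called lower at 0.5 Gy, and 530 of all genes tested. The main limits are 4 to 5 mice per group, values that keep no signal over background, and blood cell lists and 18S levels that move with dose.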
